A study of Mus musculus with 18 samples.

Results

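The genes described here encode the enzymes that build sterols and fatty acids, the proteins that set the transcription of those enzymes, and genes of sterol transport and efflux. They were chosen by known function, but with earlier results of these data known. The list had 36 genes, and 35 of them had a probe set assigned to a single gene symbol, out of 18193 genes so measured. The list held 16 sterol synthesis enzymes, of which 15 were measured, 11 fatty acid synthesis enzymes, 5 regulators of the sterol regulatory element-binding proteins (SREBPs) and 4 genes of sterol transport and efflux. Acat2, the thiolase that makes acetoacetyl-CoA, was not analysed here. Each gene was read from its brightest probe set, the probe set with the highest mean over the 18 arrays, and no filter on low values was applied, so all 35 genes were tested.

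SREBPs are made as precursors held in the membrane of the endoplasmic reticulum. When sterols are scarce, the escort protein Scap carries the precursor to the Golgi, where proteases free a fragment that enters the nucleus and switches on the genes of sterol and fatty acid synthesis; when sterols are plentiful, Insig proteins hold Scap back. Liver X receptors, which sense oxysterols, act on the other side of the balance and switch on the efflux transporters Abca1 and Abcg1. T cells that leave rest after engagement of the antigen receptor are known to draw on both syntheses for new membrane.

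Spleens of C57BL/6 mice aged 9 to 15 weeks gave CD4 T cells, isolated on magnetic beads, and total RNA was hybridised to Affymetrix arrays. There were 6 groups of 3 arrays: stimulated Gli2A Tg, stimulated Gli2R Tg, stimulated WT, resting Gli2A Tg, resting Gli2R Tg and resting WT cells. Stimulated cells were cultured for 6 h with antibodies to CD3 and CD28, which mimic antigen and costimulation. Resting cells were used directly after purification, so the effects of the antibodies and of the culture cannot be told apart. Gli2A Tg and Gli2R Tg mice carry transgenes of Gli2, a transcription factor of Hedgehog signalling, as activator (A) and repressor (R); the labels name no promoter for either transgene. They do not say whether the 3 arrays of a group came from separate mice, so p-values measure only the spread between these samples.

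The deposited values were scaled alike, with array medians between 55.5 and 76.3 intensity units. Ptch1, a direct target of Hedgehog signalling, had mean log2 levels of 12.27 in stimulated and 13.49 in resting Gli2A Tg cells and of 10.09 and 10.40 in Gli2R Tg cells, against 10.14 in stimulated and 10.38 in resting WT cells. Both Gli2 probe sets stayed at group means of 4.35 to 5.39, near the floor of the scale, and check no label. Low Xist with Y-linked signal, the pattern of males, was seen in 2 of 3 stimulated Gli2R Tg, 1 of 3 stimulated WT and 2 of 3 resting WT arrays, and in 0 of 3 arrays of each other group. Array 2 of stimulated Gli2A Tg cells had a 3′ to 5′ signal ratio of 3 for the beta-actin control probe sets, against 1.26 to 1.82 in all others, and array 3 of resting Gli2A Tg cells had a summed erythroid marker intensity of 60835, against at most 26655 in the others; counts without each are given below. Levels are given as log2(intensity + 16) after quantile normalization, a scale that understates the change of dim genes, and a gene was called changed at an adjusted p under 0.05 in limma.

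Promoter windows of 4 enzymes are shown because sterol and fatty acid enzymes, and both directions of change described below, are among them. They are Hmgcs1, the synthase that opens the mevalonate pathway, Mvd, a decarboxylase of that pathway, Cyp51, the lanosterol demethylase, and Fasn, the fatty acid synthase. Each run is the 250 bases before the annotated start, read 5′ to 3′ on the strand of the gene, from RefSeq on build GRCm38.p6. Capitals mark CCAAT on either strand (ATTGG on the other) and TCACNCCAC, 1 form of the sterol regulatory element. In Fasn the last CCAAT and ATTGG overlap.
Hmgcs1: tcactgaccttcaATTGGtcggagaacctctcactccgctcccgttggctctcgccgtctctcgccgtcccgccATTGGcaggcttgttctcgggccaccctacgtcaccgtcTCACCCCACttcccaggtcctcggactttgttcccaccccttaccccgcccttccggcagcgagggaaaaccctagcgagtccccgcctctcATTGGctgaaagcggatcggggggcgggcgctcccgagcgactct
Mvd: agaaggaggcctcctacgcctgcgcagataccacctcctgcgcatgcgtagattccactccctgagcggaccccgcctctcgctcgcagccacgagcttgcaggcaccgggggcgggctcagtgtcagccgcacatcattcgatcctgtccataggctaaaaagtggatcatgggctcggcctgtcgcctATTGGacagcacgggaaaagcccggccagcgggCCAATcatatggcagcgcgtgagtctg
Cyp51: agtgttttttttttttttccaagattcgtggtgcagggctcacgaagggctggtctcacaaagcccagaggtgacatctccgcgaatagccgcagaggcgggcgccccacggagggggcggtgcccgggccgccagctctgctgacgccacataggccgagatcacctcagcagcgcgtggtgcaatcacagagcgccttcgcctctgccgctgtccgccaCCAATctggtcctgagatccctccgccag
Fasn: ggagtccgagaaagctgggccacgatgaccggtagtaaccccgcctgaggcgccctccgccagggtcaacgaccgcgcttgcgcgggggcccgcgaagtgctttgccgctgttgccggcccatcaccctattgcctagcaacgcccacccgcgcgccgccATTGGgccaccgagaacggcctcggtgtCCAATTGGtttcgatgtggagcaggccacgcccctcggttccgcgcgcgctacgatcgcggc
The windows lie at chr13:119690101-119690350 on the plus strand for Hmgcs1, and on the minus strand at chr8:122443423-122443672 for Mvd, chr5:4104698-4104947 for Cyp51 and chr11:120824548-120824797 for Fasn. Of the 36 genes, 28 had a RefSeq window from 250 bases before to 50 bases after a start. In these windows, searched on both strands, TCACNCCAC was found in 1 gene (3.57%), Hmgcs1, against 1.44% of 27025 genes with a window. Only this exact form was searched, so other forms of the element were not counted in any gene. CCAAT, the motif of the factor NF-Y, was found in 22 of the 28 genes (78.6%) against 41.1% of all genes, and the GC box GGGCGG in 23 (82.1%) against 38.2%. The E box CACGTG was found in 7 of the 28 genes, against 8.09% of all genes. A match describes letters only and is not evidence of binding.

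Stimulation changed most of the 35 genes, and in both directions. In Gli2A Tg cells 11 genes rose and 13 fell, in Gli2R Tg cells 11 rose and 16 fell, and in WT cells 10 rose and 14 fell. Over all 18193 genes, 42.9% were called in Gli2A Tg cells (20.2% higher and 22.8% lower), 42.3% in Gli2R Tg cells (19.8% and 22.5%) and 41.7% in WT cells (19.7% and 22.0%). Without array 2 of stimulated or array 3 of resting Gli2A Tg cells, 21 of the 35 genes were called in Gli2A Tg cells. The median log2 difference of the 35 genes was -0.31 in Gli2A Tg, -0.41 in Gli2R Tg and -0.38 in WT cells, while the medians of all genes lay between 0.00 and 0.01. The 3 comparisons share no array. In all 3 genotypes 9 genes rose (Acaca, Acly, Cyp51, Elovl1, Fasn, Hsd17b7, Lss, Scap and Sqle) and 12 fell (Abca1, Abcg1, Dhcr7, Elovl5, Fads1, Fdps, Insig1, Mvd, Mylip, Sc5d, Scd2 and Srebf2). By the brightest probe sets, 6 genes were called in no genotype (Elovl6, Fads2, Msmo1, Nsdhl, Scd1 and Stard4). The other 8 were called in some genotypes, and 0 were called in opposite directions.

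**Figure D1:**
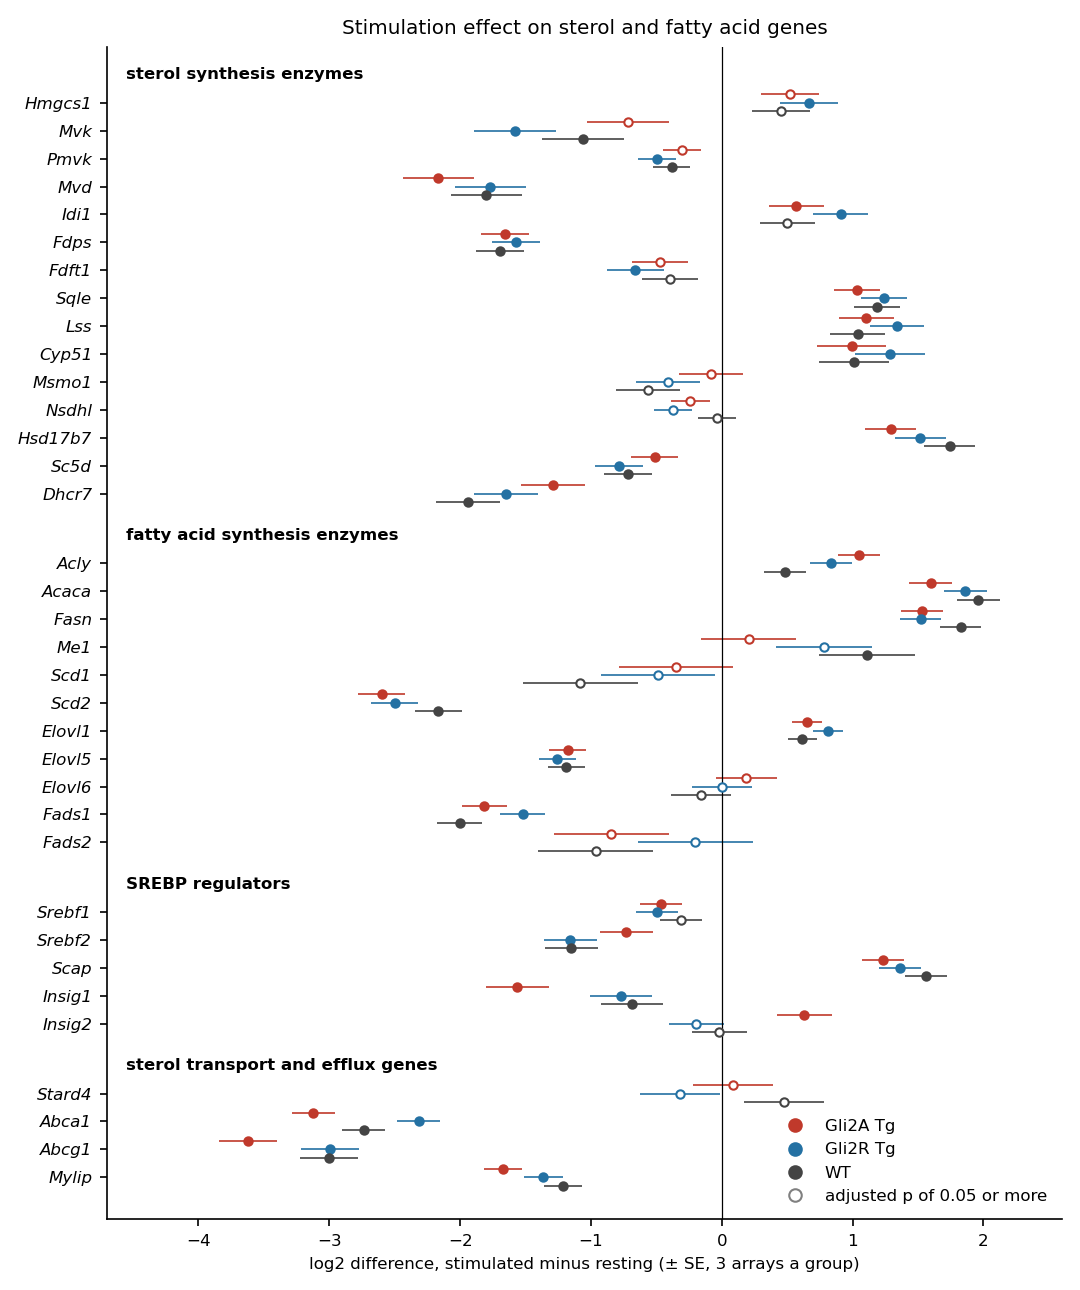
Log2 difference of stimulated minus resting cells for the 35 genes, grouped by role, in Gli2A Tg, Gli2R Tg and WT cells (points, with bars for ± SE; filled points have an adjusted p under 0.05). In each role except transport and efflux, filled points lie on both sides of 0, and in 9 genes that rose and 12 that fell all 3 points are filled.

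The sterol enzymes split. In Gli2A Tg cells 5 of 15 rose and 4 fell, in Gli2R Tg cells 6 rose and 7 fell, and in WT cells 4 rose and 6 fell. Their median log2 difference was -0.24, -0.41 and -0.38 in the same order of genotypes. Of the 11 fatty acid enzymes, 4 rose and 3 fell in Gli2A Tg cells, 4 rose and 3 fell in Gli2R Tg cells, and 5 rose and 3 fell in WT cells, with medians of 0.19, 0.00 and -0.16. With the deposited scaling alone the fatty acid medians were -0.24 in Gli2A Tg and -0.60 in WT cells, and median centring gave -0.061 in Gli2A Tg cells, so the sign in Gli2A Tg cells depends on the scaling. Single arrays also moved these medians. The fatty acid median in Gli2A Tg cells was -0.0096 without stimulated array 1, 0.0047 without resting array 1, 0.065 without resting array 2, 0.092 without stimulated array 2 and 0.31 without resting array 3, and the sterol median there was -0.12 without stimulated array 1. In Gli2R Tg cells the fatty acid median ran from -0.042 to 0.17 with 1 array left out, and in WT cells it was -0.045 without resting array 1 and -0.079 without stimulated array 3. The fatty acid median lay above the sterol median in each genotype under all 18 settings in which both were computed, the main one included. The gap was as little as 0.0025 in WT cells with the deposited scaling or median centring. Refits with a trended robust variance, the replicate block, the compared arrays only or all probe sets singly do not change log2 differences. In those settings the order was fixed in advance. No test of one list against the other was made.

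In the mevalonate stretch, which leads from acetyl-CoA to farnesyl pyrophosphate, 1 of 6 genes rose and 2 fell in Gli2A Tg cells, 2 rose and 4 fell in Gli2R Tg cells, and 4 fell in WT cells. Hmgcs1, the synthase at its start, had log2 levels of 11.42, 11.87 and 11.54 in stimulated against 11.60, 10.95 and 10.72 in resting Gli2A Tg cells. It had 11.03, 11.32 and 11.54 in stimulated against 10.76, 10.63 and 10.50 in resting Gli2R Tg cells, and 11.15, 11.37 and 11.17 in stimulated against 11.03, 10.82 and 10.47 in resting WT cells. Stimulated arrays were above resting arrays in Gli2R Tg and WT cells and overlapped them in Gli2A Tg cells, where 1 resting array was as high as the stimulated ones. The difference passed the test in Gli2R Tg cells only (0.67 ± 0.22, SE; adjusted p = 0.0231), against 0.52 ± 0.22 (adjusted p = 0.0714) in Gli2A Tg and 0.45 ± 0.22 (adjusted p = 0.119) in WT cells, and the effect was not shown to differ between genotypes. The Gli2R Tg call was lost without resting array 2 or 3 or stimulated array 2 or 3 (log2 0.55 to 0.67; adjusted p 0.0529 to 0.0982). The 4 other Hmgcs1 probe sets went the other way in WT cells, by -0.52 to -0.55.

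Mvd fell 4.49-fold in Gli2A Tg cells (log2 -2.17 ± 0.27, SE; adjusted p = 1e-05), 3.41-fold in Gli2R Tg cells (-1.77) and 3.48-fold in WT cells (-1.80). Its mean level was 6.61 ± 0.21 in stimulated and 8.78 ± 0.32 in resting Gli2A Tg cells (SD, n = 3 each). Fdps, which makes farnesyl pyrophosphate, fell 3.15-fold in Gli2A Tg (-1.66 ± 0.18), 2.97-fold in Gli2R Tg (-1.57) and 3.24-fold in WT cells (-1.69). For both genes every stimulated array lay below every resting array of its genotype; over all genes this held for 26.3% in Gli2A Tg, 27.3% in Gli2R Tg and 27.0% in WT cells. Mvk, the mevalonate kinase, fell in Gli2R Tg cells (-1.58 ± 0.31; adjusted p = 0.000716) and WT cells (-1.06 ± 0.31; adjusted p = 0.0129) and had a difference of -0.72 ± 0.31 (adjusted p = 0.0812) in Gli2A Tg cells. The other Mvk probe set was called lower in each genotype, by -2.03 in Gli2A Tg cells (adjusted p = 1.84e-05 over all probe sets), -2.74 in Gli2R Tg and -1.85 in WT cells. Pmvk, the next kinase, fell by 0.49 in Gli2R Tg and 0.38 in WT cells on the log2 scale; the WT call was lost without any of 5 arrays (resting 1, 2 or 3, stimulated 2 or 3; adjusted p 0.0703 to 0.172) and under 5 of the other alternatives (adjusted p 0.0504 to 0.0796) and the Gli2R Tg call without resting array 3 or stimulated array 2 (adjusted p up to 0.0537). Idi1, the isomerase between them and Fdps, rose in Gli2R Tg cells (0.91 ± 0.21; adjusted p = 0.00239) and in Gli2A Tg cells (0.57 ± 0.21; adjusted p = 0.0407), and differed by 0.50 in WT cells (adjusted p = 0.0715). Its Gli2A Tg call was lost without any resting array or without stimulated array 2 or 3 (adjusted p 0.0555 to 0.14). The other Idi1 probe set was called higher in each genotype, by 1.88 in WT cells (adjusted p = 5.86e-05 over all probe sets). The counts for the mevalonate stretch use the brightest probe sets only. They leave out calls such as the Idi1 rise in WT cells and the Mvk fall in Gli2A Tg cells.

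Beyond farnesyl pyrophosphate, 4 enzymes rose in all 3 genotypes. Hsd17b7, a ketosteroid reductase of the demethylation steps, had levels of 9.38, 9.71 and 9.54 in stimulated against 8.56, 8.24 and 7.96 in resting Gli2A Tg cells. It had 9.51, 9.60 and 9.79 in stimulated against 8.22, 7.95 and 8.17 in resting Gli2R Tg cells, and 9.56, 9.77 and 9.64 in stimulated against 8.31, 7.52 and 7.92 in resting WT cells. All 9 stimulated arrays were above all 9 resting arrays (stimulated above resting without overlap held for 24.1% of all genes in Gli2A Tg, 24.8% in Gli2R Tg and 24.7% in WT cells), and the rise was 2.44-fold in Gli2A Tg, 2.86-fold in Gli2R Tg and 3.35-fold in WT cells (log2 1.74 ± 0.20; adjusted p = 3.57e-06).

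Sqle, the squalene epoxidase, rose 2.05-fold in Gli2A Tg, 2.37-fold in Gli2R Tg and 2.27-fold in WT cells. Cyp51 rose 1.99-fold, 2.43-fold and 2.01-fold in the same genotypes. Lss, which closes the first sterol ring system, rose 2.15-fold, 2.53-fold and 2.05-fold by its brightest probe set, but its other probe sets differed by -0.51 and -0.88 in WT cells. The last enzymes of the route went down. Dhcr7, which makes cholesterol from 7-dehydrocholesterol, fell 2.45-fold in Gli2A Tg (-1.29 ± 0.24), 3.14-fold in Gli2R Tg (-1.65) and 3.84-fold in WT cells (-1.94), to a mean of 8.62 ± 0.15 in stimulated Gli2A Tg, 7.87 ± 0.32 in stimulated Gli2R Tg and 7.61 ± 0.58 in stimulated WT cells. Sc5d, the desaturase before it, fell by 0.51, 0.79 and 0.72 on the log2 scale; 1 of its 3 probe sets rose by 1.67 in WT cells, and the Gli2A Tg call was lost without resting array 1 or 2 or stimulated array 1 or 2 (adjusted p 0.0519 to 0.13).

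Fdft1, the squalene synthase at the branch to sterols, fell in Gli2R Tg cells (-0.66 ± 0.21; adjusted p = 0.0213), a call lost without resting array 1 or stimulated array 1 or 2 (adjusted p up to 0.075), and differed by -0.47 in Gli2A Tg and -0.40 in WT cells. Another Fdft1 probe set fell by 0.96 in WT cells (adjusted p = 0.0032 over all probe sets). Msmo1 and Nsdhl, enzymes of the demethylation at carbon 4 of the sterol ring, had differences between -0.57 and -0.04 and no call.

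**Figure D2:**
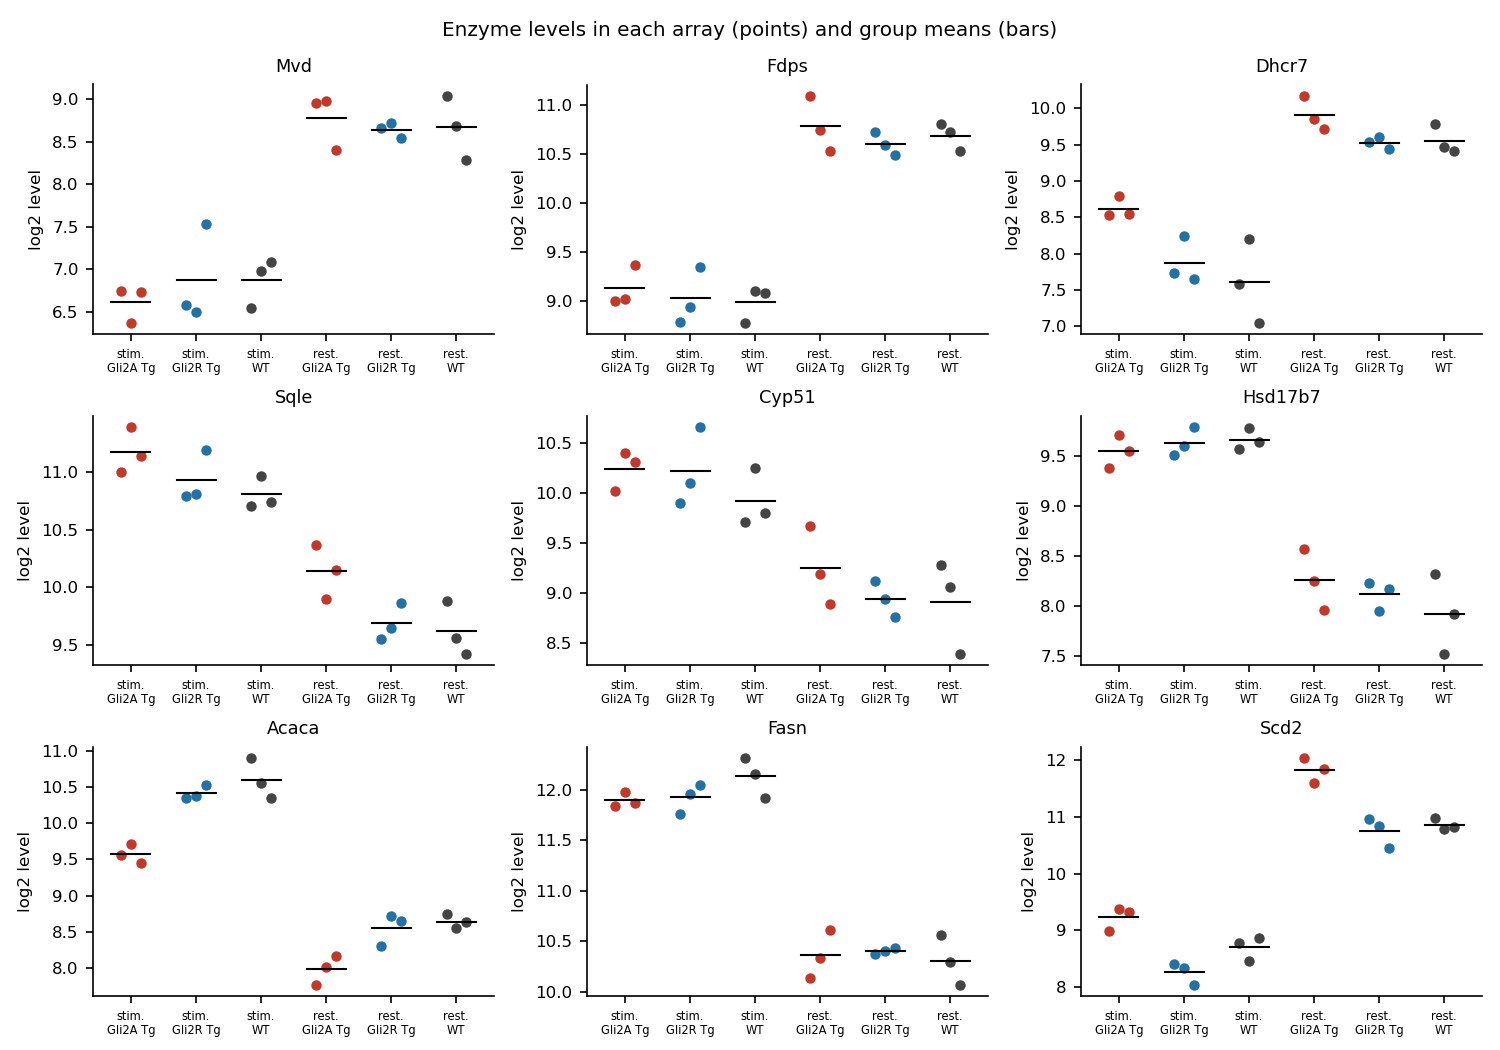
Log2 level of 9 enzymes in each array (points) with group means (bars), for stimulated groups on the left and resting groups on the right of each panel. Mvd, Fdps, Dhcr7 and Scd2 are lower in every stimulated group, and Sqle, Cyp51, Hsd17b7, Acaca and Fasn are higher.

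Of the 4 genes of fatty acid supply and chain building, 3 rose in Gli2A Tg cells, 3 in Gli2R Tg cells and 4 in WT cells, and Me1 was the gene with no call in the transgenic lines. Acaca, the carboxylase that makes malonyl-CoA and sets the pace of synthesis, had levels of 9.56, 9.71 and 9.45 in stimulated against 7.76, 8.01 and 8.17 in resting Gli2A Tg cells. It had 10.35, 10.38 and 10.53 in stimulated against 8.30, 8.72 and 8.65 in resting Gli2R Tg cells, and 10.90, 10.55 and 10.35 in stimulated against 8.75, 8.55 and 8.63 in resting WT cells. No stimulated array overlapped the resting range of its genotype, and the rise was 3.02-fold in Gli2A Tg (log2 1.60 ± 0.16), 3.63-fold in Gli2R Tg (1.86) and 3.89-fold in WT cells (1.96; adjusted p = 1.84e-07).

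Fasn, the multifunctional synthase that extends the chain to palmitate, had levels of 11.84, 11.98 and 11.87 in stimulated against 10.14, 10.34 and 10.62 in resting Gli2A Tg cells. The stimulated levels were 11.76, 11.96 and 12.05 against resting levels of 10.38, 10.40 and 10.43 in Gli2R Tg cells, and 12.31, 12.16 and 11.92 against 10.56, 10.29 and 10.07 in WT cells. All 9 stimulated arrays lay more than 1 log2 unit above all 9 resting arrays. The rise was 2.89-fold in Gli2A Tg, 2.87-fold in Gli2R Tg and 3.54-fold in WT cells (log2 1.82 ± 0.16; adjusted p = 2.55e-07).

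Acly, the citrate lyase that supplies acetyl-CoA to both pathways, had levels of 12.96, 13.10 and 12.97 in stimulated against 12.16, 12.03 and 11.71 in resting Gli2A Tg cells. It had 13.04, 13.05 and 13.01 in stimulated against 12.40, 12.30 and 11.90 in resting Gli2R Tg cells, and 12.82, 12.71 and 12.41 in stimulated against 12.28, 12.22 and 12.00 in resting WT cells. The groups did not overlap in any genotype, and Acly was called higher by 1.05 ± 0.16 in Gli2A Tg, 0.83 ± 0.16 in Gli2R Tg and 0.48 ± 0.16 in WT cells. Its probe sets disagree: of the other 5, 1 rose, 2 fell by 1.28 and 0.93 and 2 had no call in WT cells. The WT call was lost without resting array 3 or stimulated array 1 or 2 (adjusted p 0.0764 to 0.102). Me1, a malic enzyme that supplies NADPH, was called in WT cells (1.11 ± 0.37; adjusted p = 0.0231), where its stimulated and resting arrays overlapped, and the call was lost without resting array 1 or 2 or stimulated array 2 (adjusted p 0.0559 to 0.13). It differed by 0.20 in Gli2A Tg cells and 0.78 in Gli2R Tg cells.

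The desaturases, which place double bonds in finished chains, had 2 of 4 genes lower in every genotype and none higher. Scd2, a stearoyl-CoA desaturase, had levels of 8.98, 9.37 and 9.32 in stimulated against 12.04, 11.59 and 11.84 in resting Gli2A Tg cells. It had 8.40, 8.34 and 8.03 in stimulated against 10.97, 10.84 and 10.46 in resting Gli2R Tg cells, and 8.78, 8.45 and 8.85 in stimulated against 10.98, 10.79 and 10.82 in resting WT cells. The gap between the groups exceeded 1 log2 unit in every genotype, and Scd2 fell 6.06-fold in Gli2A Tg (-2.60 ± 0.18), 5.66-fold in Gli2R Tg (-2.50) and 4.49-fold in WT cells (-2.17; adjusted p = 1.52e-07). Fads1, the delta-5 desaturase of polyunsaturated fatty acids, fell 3.52-fold in Gli2A Tg, 2.87-fold in Gli2R Tg and 4.01-fold in WT cells. Scd1 and Fads2 had differences between -1.08 and -0.20 with standard errors of 0.44 and no call. Of the elongases, Elovl1, which makes very long saturated chains, rose by 0.65, 0.81 and 0.62 in Gli2A Tg, Gli2R Tg and WT cells, Elovl5, which acts on polyunsaturated chains, fell by 1.18, 1.26 and 1.19, and Elovl6 differed by -0.16 to 0.19 with no call. The grouping by step was made after the values were seen.

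Among the regulators, Scap rose 2.35-fold in Gli2A Tg, 2.57-fold in Gli2R Tg and 2.94-fold in WT cells (log2 1.56 ± 0.16; adjusted p = 1.44e-06). Srebf2, the gene of the SREBP that favours sterol enzymes, fell 1.66-fold in Gli2A Tg (-0.73 ± 0.20), 2.23-fold in Gli2R Tg (-1.16) and 2.22-fold in WT cells (-1.15). The Gli2A Tg call was lost when only the compared arrays were fitted (adjusted p = 0.0737). The other Srebf2 probe set differed by -0.65 in Gli2A Tg, -0.53 in Gli2R Tg and -0.39 in WT cells. Over all probe sets the adjusted p was 0.046, 0.105 and 0.235 in that order. Srebf1, whose product favours fatty acid enzymes, had levels of 10.66, 10.59 and 10.57 in stimulated against 11.02, 10.86 and 11.33 in resting Gli2A Tg cells. It had 10.45, 10.59 and 10.49 in stimulated against 11.12, 11.17 and 10.74 in resting Gli2R Tg cells, and 10.72, 10.65 and 10.64 in stimulated against 11.23, 11.02 and 10.70 in resting WT cells. The groups overlapped only in WT cells, where 1 resting array was as low as the stimulated ones. Srebf1 was called lower in Gli2A Tg (-0.47 ± 0.16; adjusted p = 0.0284) and Gli2R Tg cells (-0.50 ± 0.16; adjusted p = 0.0201), against -0.32 ± 0.16 (adjusted p = 0.135) in WT cells. Both calls rest on single arrays: the Gli2A Tg call was lost without resting array 3 or any stimulated array (adjusted p 0.0505 to 0.124), and the Gli2R Tg call without resting array 1 or 2 or stimulated array 1 or 3 (adjusted p 0.0525 to 0.0851).

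Insig1, itself a target of SREBPs, fell 2.95-fold in Gli2A Tg (-1.56 ± 0.24), 1.71-fold in Gli2R Tg (-0.77) and 1.61-fold in WT cells (-0.69). The Gli2R Tg call was lost without resting array 1 or 2 or stimulated array 1 (adjusted p 0.0555 to 0.0785), and the WT call without resting array 1 or 2 or stimulated array 1 or 3 (adjusted p 0.0739 to 0.124). The larger fall in Gli2A Tg cells did not pass the test of the difference (-0.88 ± 0.34 against WT; unadjusted p = 0.0206, adjusted p = 0.402). Insig2 was called higher in Gli2A Tg cells (0.63 ± 0.21; adjusted p = 0.0229), a call lost without resting array 3 or stimulated array 1 or 2 (adjusted p 0.066 to 0.122). By its brightest probe set it differed by -0.19 in Gli2R Tg and -0.02 in WT cells, while its other 2 probe sets rose by 0.82 and 1.23 in WT cells.

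Of the 35 genes Abcg1 fell furthest in each genotype. Abcg1, a transporter that passes cholesterol to lipoprotein particles, had levels of 8.54, 9.25 and 8.77 in stimulated against 12.79, 12.41 and 12.23 in resting Gli2A Tg cells. It had 9.39, 8.76 and 8.92 in stimulated against 12.19, 12.04 and 11.83 in resting Gli2R Tg cells, and 9.36, 9.00 and 8.81 in stimulated against 12.22, 11.96 and 11.99 in resting WT cells. Stimulated arrays were far below resting arrays in each genotype, by 12.3-fold in Gli2A Tg (log2 -3.62 ± 0.22; adjusted p = 8.96e-09), 7.96-fold in Gli2R Tg (-2.99) and 8.02-fold in WT cells (-3.00).

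Abca1, the transporter that loads lipid-poor apolipoprotein, had levels of 8.39, 8.86 and 8.36 in stimulated against 11.69, 11.85 and 11.44 in resting Gli2A Tg cells. The stimulated levels were 8.09, 7.92 and 7.94 against resting levels of 10.25, 10.23 and 10.41 in Gli2R Tg cells, and 8.37, 7.93 and 8.02 against 10.99, 10.73 and 10.81 in WT cells. Again no stimulated array reached a resting one, and Abca1 fell 8.70-fold in Gli2A Tg, 4.98-fold in Gli2R Tg and 6.67-fold in WT cells. Mylip, a ubiquitin ligase induced by liver X receptors, fell 3.18-fold, 2.57-fold and 2.32-fold. Stard4, a carrier of cholesterol between membranes, had levels of 9.21, 8.33 and 9.53 in stimulated against 9.17, 8.69 and 8.95 in resting Gli2A Tg cells. It had 9.15, 9.25 and 9.63 in stimulated against 9.31, 9.36 and 10.30 in resting Gli2R Tg cells, and 9.35, 9.37 and 9.22 in stimulated against 9.18, 8.79 and 8.55 in resting WT cells. Its groups overlapped in both transgenic lines, and it had no call in any genotype (log2 0.08, -0.32 and 0.48). Another of its probe sets, nearly as bright, rose by 1.24 in Gli2A Tg cells (adjusted p = 0.0034 over all probe sets). The remaining one differed there by -0.41.

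Markers of macrophages and myeloid cells, and of other cell types, also changed with stimulation. In each genotype 14 of 15 such markers fell with stimulation and none rose, with median log2 differences of -4.65 in Gli2A Tg, -5.39 in Gli2R Tg and -5.25 in WT cells. Their summed intensity was 2365 to 5819 in stimulated against 134624 to 148851 in resting Gli2A Tg cells, 1428 to 1976 in stimulated against 60361 to 75864 in resting Gli2R Tg cells, and 1705 to 2347 in stimulated against 77023 to 115880 in resting WT cells. No marker was at 0 in any array. Of 8 CD4 T cell markers, 4 fell in Gli2A Tg, 7 in Gli2R Tg and 5 in WT cells, with sums of 44673 to 47760 in stimulated against 72533 to 94604 in resting Gli2A Tg cells, 44320 to 50618 against 99522 to 106084 in Gli2R Tg cells, and 44254 to 53906 against 81294 to 98957 in WT cells. Markers of other cell types fell too. In Gli2A Tg, Gli2R Tg and WT cells the falls were 7, 5 and 6 of 8 erythroid, 5, 5 and 6 of 7 granulocyte and mast cell, 4, 3 and 5 of 6 dendritic cell, 5, 4 and 4 of 6 CD8 T and NK cell, and 3, 4 and 2 of 7 B cell markers. In WT cells the sums were 1230 to 3752 in stimulated against 16479 to 26385 in resting cells for erythroid, 370 to 665 against 6010 to 20098 for granulocyte and mast cell, 210 to 295 against 687 to 881 for dendritic cell, 2311 to 2882 against 5709 to 6067 for CD8 T and NK cell, and 411 to 724 against 1389 to 1952 for B cell markers. Cd8a rose in all 3 genotypes and Pax5, a B cell factor, in both transgenic lines. Macrophages express Abca1, Abcg1, Scd2 and many other genes of this list; the part of any of the markers in these differences was not tested, and in bulk RNA fewer cells of a type and less RNA per cell cannot be told apart.

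Other genes of lipid metabolism, from lists made along with the first, were counted in the same comparisons. Of 13 other genes of sterol export, storage and liver X receptor signalling, 10 fell in Gli2A Tg, 10 in Gli2R Tg and 11 in WT cells, and none rose. In WT cells Pltp, the phospholipid transfer protein, differed by -3.54, Apoe, the apolipoprotein of macrophage cholesterol export, by -3.35, Lipa, the lysosomal acid lipase, by -3.31 and Nr1h3, the gene of liver X receptor alpha, by -2.57 (adjusted p = 0.000197), and Apoe and Lipa are abundant in macrophages. Of 17 genes of fatty acid oxidation, 12 fell and 2 rose in Gli2A Tg, 11 fell and 1 rose in Gli2R Tg, and 11 fell and 1 rose in WT cells. In WT cells these included Pparg, a nuclear receptor of lipid uptake and storage (-3.49), and Hadh, Hadha and Ech1, enzymes of mitochondrial beta-oxidation (-2.66, -2.25 and -2.21).

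The other synthesis genes went both ways. Of 20 other genes of fatty acid synthesis and activation, 8 rose and 5 fell in Gli2A Tg, 6 rose and 6 fell in Gli2R Tg, and 7 rose and 6 fell in WT cells. The largest differences in WT cells were of Acss2, which makes acetyl-CoA from acetate (-2.66), Fads3, a member of the desaturase family (-2.14), Tecr, the reductase of the elongation cycle (-1.78), and Acsl6, an acyl-CoA synthetase (-1.75). Of 7 other sterol genes, 4 rose and 3 fell in Gli2A Tg cells, 3 rose and 3 fell in Gli2R Tg cells, and 3 rose and 3 fell in WT cells; in WT cells Idi2, a paralog of Idi1, rose 4.46-fold and Lbr, the lamin B receptor, which is also a sterol reductase, fell 4.08-fold. Tmem97, a sterol-responsive membrane protein, rose 2.99-fold and Tm7sf2, a second sterol reductase, fell 2.08-fold. Of 10 genes that process SREBPs or sense sterols, 4 rose and 2 fell in WT cells, among them Erlin1, an endoplasmic reticulum protein that restrains SREBPs (1.20), Mbtps2, the site-2 protease that releases them (1.17), and Ubxn4 and Aup1, factors of protein disposal at that membrane (0.84 and 0.74). The counts were 4 and 2 in Gli2A Tg and 4 and 3 in Gli2R Tg cells.

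Between genotypes few of the 35 genes were called. In resting Gli2A Tg against resting WT cells 2 were called, both higher, where 0.55% of all genes were called (0.412% higher). Scd2, with the resting values given above, was higher in every Gli2A Tg array than in any WT array, 1.95-fold on average (log2 0.96 ± 0.18; adjusted p = 0.0268). Abca1 was likewise higher in every resting Gli2A Tg array, 1.76-fold (0.82 ± 0.17; adjusted p = 0.0404). Groups that do not overlap in this direction occur in 8.86% of all genes. The Scd2 call was lost without resting Gli2A Tg array 1 or 3 or resting WT array 2 or 3 (log2 0.85 to 0.95; adjusted p 0.0786 to 0.123), and the Abca1 call without Gli2A Tg array 1 or 2 or any WT array (0.72 to 0.89; adjusted p 0.0587 to 0.204). With the sex pattern as a covariate the differences were 0.87 for Scd2 (adjusted p = 0.173) and 0.79 for Abca1 (adjusted p = 0.197).

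Of the sterol enzymes, 14 of 15 had a higher mean in resting Gli2A Tg than in resting WT cells, but 0 were called by limma and 2 had an unadjusted p under 0.05. These were Sqle (0.52 ± 0.18; adjusted p = 0.28) and Fdft1 (0.47 ± 0.21; adjusted p = 0.473), and Sc5d was the exception in sign (-0.16). These signs are of the brightest probe sets. The 3 other Fdft1 probe sets lay below 0 (-0.30 to -0.08), and the 2 other Sc5d probe sets above 0 (0.39 and 0.68). The other Fdps probe set and 2 others of Hsd17b7 were also opposite in sign. For Hmgcs1, Cyp51, Idi1, Lss, Msmo1, Mvd and Mvk every other probe set had the sign of the brightest. The median of the 15 was 0.29 (0.13 to 0.44 when any 1 array was left out: 0.13 without resting Gli2A Tg array 1, 0.16 without resting WT array 3 and 0.44 without resting Gli2A Tg array 3), against 0.01 for all genes, of which 9423 of 18193 were higher in Gli2A Tg cells. The median of the 11 fatty acid enzymes was 0.06 (-0.068 without resting Gli2A Tg array 3 and -0.061 without resting WT array 3), with 6 above WT. The macrophage and myeloid markers stood beside this shift: 14 of 15 had a higher mean in resting Gli2A Tg than in resting WT cells, with a median of 0.64 and 0 called (5 at an unadjusted p under 0.05). Of the dendritic cell markers 6 of 6 were higher (median 0.45) and of the erythroid markers 7 of 8 (median 0.10), while 6 of 7 granulocyte and mast cell markers were lower (median -0.77), with 0 called in each list and 1 in each at an unadjusted p under 0.05. The part of these markers in the shift was not tested.

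In resting Gli2A Tg against resting Gli2R Tg cells 3 of the 35 genes were called, all higher, where 2.4% of all genes were called (1.57% higher). Abca1 differed 2.57-fold (log2 1.36 ± 0.17; adjusted p = 0.000701), and its lowest Gli2A Tg array was 1 log2 unit above its highest Gli2R Tg array; groups without overlap in this direction occur in 11% of all genes. Scd2 differed 2.10-fold (1.07 ± 0.18; adjusted p = 0.00573). Fads1 had resting levels of 9.44, 9.72 and 10.18 in Gli2A Tg against 8.92, 9.00 and 9.26 in Gli2R Tg and 9.60, 9.39 and 9.62 in WT cells; stimulated levels were 7.95, 8.03 and 7.91 in Gli2A Tg, 7.48, 7.56 and 7.58 in Gli2R Tg and 7.32, 7.59 and 7.69 in WT cells. At rest it was higher in every Gli2A Tg than in any Gli2R Tg array and overlapped WT cells (0.72 ± 0.17; adjusted p = 0.0406, against Gli2R Tg). That call was lost without Gli2A Tg array 2 or 3 or Gli2R Tg array 1 or 2 (0.52 to 0.75; adjusted p 0.0614 to 0.151). Of the other lipid genes, Erlin2, a partner of Erlin1 (0.64; adjusted p = 0.0286), Hacd3, a dehydratase of the elongation cycle (0.61; adjusted p = 0.038), and Apoe (1.32; adjusted p = 0.0495) were called in this comparison. Of the myeloid markers 14 of 15 were higher in Gli2A Tg cells (median 1.14) and 2 were called, Adgre1 (1.48) and Mpeg1 (1.30); the sum was 134624 to 148851 in Gli2A Tg against 60361 to 75864 in Gli2R Tg cells. Sums of other markers did not overlap either, with 21760 to 60835 in Gli2A Tg against 4306 to 9146 in Gli2R Tg cells for erythroid markers (Alas2 and Slc4a1 called, 4.18 and 3.80), 3970 to 8720 against 2607 to 2926 for granulocyte and mast cell markers, and 1092 to 1499 against 689 to 906 for dendritic cell markers, while CD4 T cell markers had 72533 to 94604 against 99522 to 106084 (Cd5 called, -0.85). The part of these markers in the 3 calls was not tested. Without resting Gli2A Tg array 3, 2 of the 35 genes were called here. The comparison shares its Gli2A Tg arrays with the one against WT.

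**Figure D3:**
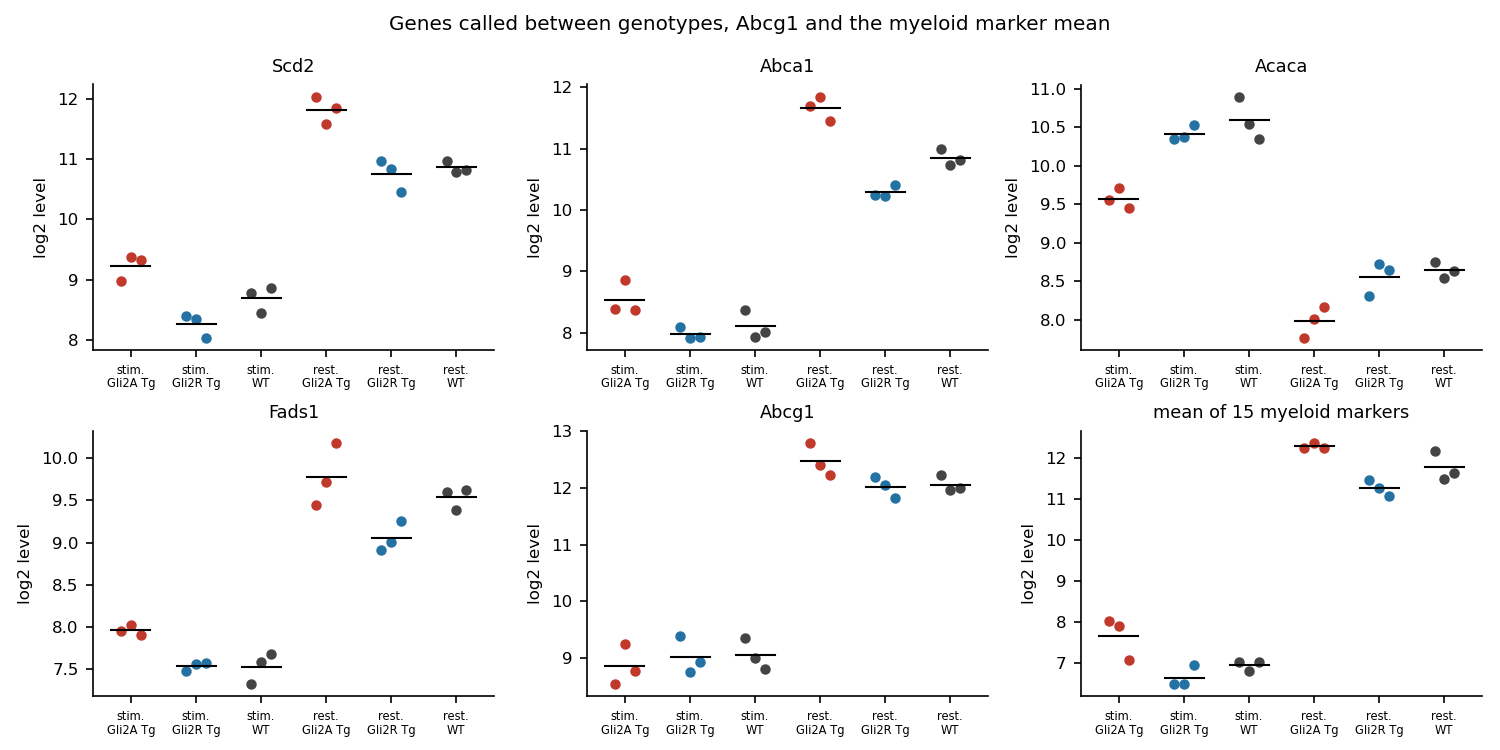
Log2 level in each array (points) with group means (bars) of the 4 genes called between genotypes, of Abcg1 and of the mean of 15 macrophage and myeloid markers. In resting cells Abca1 and the marker mean are highest in Gli2A Tg and lowest in Gli2R Tg cells.

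For resting Abca1 the order of the genotypes was Gli2A Tg, WT, Gli2R Tg, and no 2 groups overlapped, though the difference of Gli2R Tg from WT did not pass the test (-0.54 ± 0.17; adjusted p = 0.256), and 9.16% of all genes lie lower there without overlap. The mean log2 level of the 15 markers was 12.29 ± 0.07 in resting Gli2A Tg, 11.27 ± 0.19 in resting Gli2R Tg and 11.77 ± 0.36 in resting WT cells (SD, n = 3 each). In resting Gli2R Tg against resting WT cells 0 of the 35 genes were called by limma (0% of all genes), with 4 at an unadjusted p under 0.05: Abca1, Fads1 (-0.48), Fads2 (-0.98) and Stard4 (0.82). The sterol enzymes had a median of 0.03 there (-0.096 to 0.14 with 1 array left out), and the fatty acid enzymes of -0.11 (-0.17 to -0.05).

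After stimulation, 1 gene was called in Gli2A Tg against WT cells, where 0.137% of all genes were called (0.044% lower). Acaca was lower in every Gli2A Tg array than in any WT array, 2.03-fold (log2 -1.02 ± 0.16; adjusted p = 0.0262); such lower groups without overlap occur in 8.65% of all genes. The call was lost without any Gli2A Tg array or without WT array 1 or 2 (-1.09 to -0.87; adjusted p 0.0512 to 0.0734). In resting cells Acaca had a difference of -0.66 ± 0.16 (adjusted p = 0.114), also with no overlap (6.47% of all genes), and against stimulated Gli2R Tg cells one of -0.84 ± 0.16 (adjusted p = 0.0518). Dhcr7 followed with a difference of 1.01 ± 0.24 against stimulated WT cells (adjusted p = 0.106). The 15 sterol enzymes had a median of 0.32, with 13 above WT and 0 called (3 at an unadjusted p under 0.05), beside 12 of 15 myeloid markers above WT (median 0.84, 0 called, 9 at an unadjusted p under 0.05) and 7 of 7 B cell markers above WT (median 0.36, 0 called or at an unadjusted p under 0.05); the part of the markers was not tested.

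In stimulated Gli2A Tg against stimulated Gli2R Tg cells 1 gene was called, where 0.231% of all genes were called (0.198% higher): Scd2 was higher, 1.96-fold (0.97 ± 0.18; adjusted p = 0.0433), with no overlap, as in 9.2% of all genes. The call was lost without Gli2A Tg array 2 or 3 or any Gli2R Tg array (0.86 to 1.04; adjusted p 0.0761 to 0.159), and 14 of 15 myeloid markers had a higher mean in Gli2A Tg cells (median 0.90). In stimulated Gli2R Tg against stimulated WT cells 0 of the 35 genes were called by limma (0.044% of all genes), with 2 at an unadjusted p under 0.05, Acly (0.38) and Scd2 (-0.44).

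The stimulation effect itself did not pass a test of difference between genotypes for any of the 35 genes. Of all genes 0.011% were called for Gli2A Tg minus WT, 0% for Gli2R Tg minus WT and 0.11% for Gli2A Tg minus Gli2R Tg. At an unadjusted p under 0.05 there were 4, 0 and 3 of the 35 genes. For Gli2A Tg minus WT these were Acly (0.57 ± 0.23; adjusted p = 0.422), Insig1, Insig2 (0.65 ± 0.30; adjusted p = 0.485) and Mylip (-0.45 ± 0.21; adjusted p = 0.486). For Gli2A Tg minus Gli2R Tg they were Abca1 (-0.81 ± 0.23; adjusted p = 0.223), Insig2 (0.83) and Insig1 (-0.79). These values are of the brightest probe sets. The 2 next brightest Acly probe sets differed with stimulation by -1.47 and -0.87 in Gli2A Tg against -1.28 and -0.93 in WT cells. The 2 other Insig2 probe sets rose by 0.93 and 1.53 in Gli2A Tg, 0.58 and 1.39 in Gli2R Tg and 0.82 and 1.23 in WT cells. Those of Abca1 differed by -0.68 and -0.28 in Gli2A Tg against -0.16 and 0.46 in Gli2R Tg cells.

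Several genes gave different answers from different probe sets. The 35 genes had 84 probe sets, and 27 genes had more than 1. Of the 24 genes called with stimulation in Gli2A Tg cells, 18 had other probe sets, and in 3 of them (Acly, Lss and Sc5d) another probe set was called in the opposite direction. In Gli2R Tg cells these were 4 of 20, Hmgcs1 in addition, and in WT cells 2 of 18, Acly and Sc5d. These counts leave out genes with no call by the brightest probe set. Another probe set was called for some of them, such as Idi1 and Fdft1 in WT cells and Mvk and Stard4 in Gli2A Tg cells. The brightest probe sets of Acly, Elovl1, Elovl5, Fdft1 and Hsd17b7 end in _x_at and that of Lss in _s_at, endings that Affymetrix gave to sets whose probes may also match other transcripts. For Hsd17b7 the other 3 probe sets differed by 0.76, 2.53 and -0.65 in WT cells, and for Scd2 by -2.73 and 0.55.

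**Figure D4:**
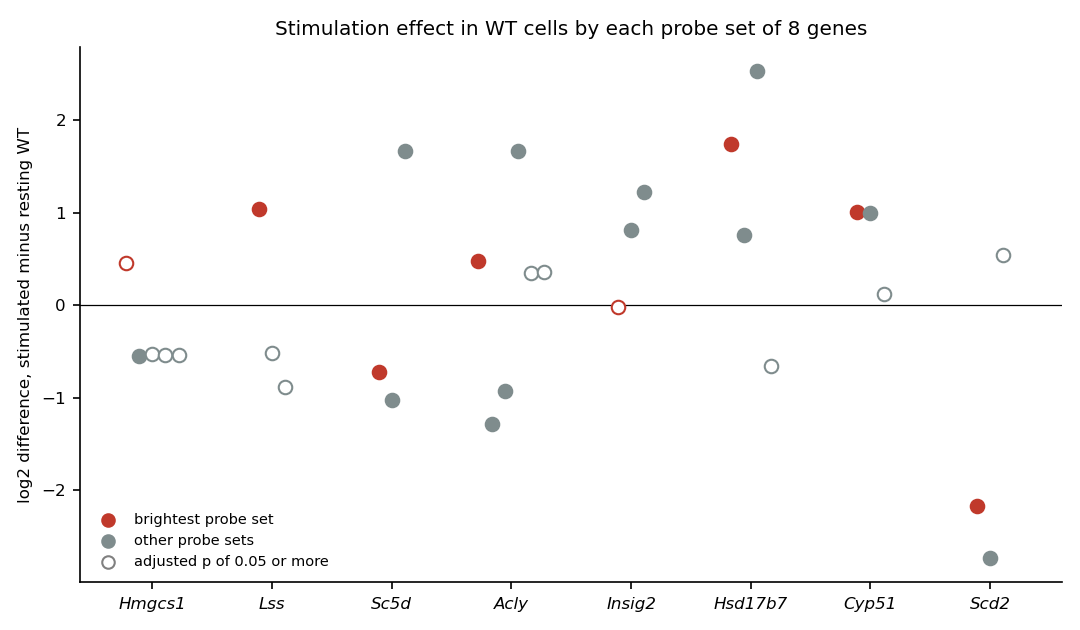
Log2 difference of stimulated minus resting WT cells by every probe set of 8 genes (points, side by side for each gene; the brightest is in red, and filled points have an adjusted p under 0.05 over all probe sets). Acly and Sc5d have filled points on both sides of 0, and the brightest Hmgcs1 and Lss probe sets lie above 0 with all others below.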

How the data were processed

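Affymetrix arrays of 18 samples were read from the submitters' value table. The authors deposited linear intensity values made with affy (version not given), per the submitters' processing notes; every array had a mean of 500 after trimming 2% at each end, as computed here from the deposited intensities. The table held 45101 probe sets: 34945 carried a single gene symbol, 932 several and 9160 none in the platform annotation, and 64 were controls; 34741 were matched by Entrez number. The labels' protocols name both a column kit and Trizol for RNA. Here log2(value + 16) was quantile normalized over the whole table, the brightest probe set was kept for each of 18193 genes, and limma 3.58.1 (R 4.3.3) fitted 6 group means on all 18 arrays, with Benjamini-Hochberg adjustment over all genes within each of 12 comparisons. The fit was tested on simulated data in which 200 of 18193 genes changed in stimulated WT cells. Of log2 changes of 1, 47% were recovered there, and of changes of 2, 84%. In the measured WT comparison 41.7% of all genes were called, far more than changed in the simulation. The adjusted p depends on that share, so these percentages do not give the share recovered in the stimulation comparisons. Precision is limited by 3 arrays a group.

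All 35 measured genes may be named; of other lipid lists, at most the 4 called genes with the largest differences in WT cells and any called between genotypes. Single arrays are given for genes called between genotypes, the 3 largest differences in each direction and the first gene of each role. The members and lists were chosen with earlier results of these data known. Over all genes, same-numbered replicates did not deviate together (correlations of -0.06 to 0.10 over 45 pairs), so the numbers were not taken as pairs. The mean log2 level of the sterol enzymes did fall from array 1 to array 3 in resting WT cells (9.65, 9.45 and 9.29). It also fell in resting Gli2A Tg cells (9.98, 9.67 and 9.50), but not in resting Gli2R Tg cells (9.49, 9.46 and 9.55). Alternatives changed the scaling, the pseudocount (1 and 64), the choice of probe set, the arrays fitted, the variance model and covariates. Promoter windows came from RefSeq (GRCm38.p6).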

Additional observations from a re-analysis of the deposited data

How the results depend on the processing

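Each member call was refitted under 18 alternatives, except that of Me1 in WT cells, which was refitted under 17. Of the stimulation calls, 17 of 24 in Gli2A Tg, 19 of 27 in Gli2R Tg and 18 of 24 in WT cells held in every one; of the genotype calls 0 of 7 did. Taking the mean of all probe sets of a gene turned the direction of Lss (-0.25 in Gli2A Tg cells, -0.11 in Gli2R Tg and -0.12 in WT cells), Acly (-0.23 in Gli2A Tg cells, -0.12 in Gli2R Tg cells), Hmgcs1 (-0.17 in Gli2R Tg cells) and Sc5d (0.044 in Gli2R Tg cells), none of them called, and put the median of the fatty acid enzymes at -0.16 in Gli2A Tg and 0.11 in WT cells and that of the sterol enzymes at -0.15 in WT cells. Median centring gave fatty acid medians of -0.061 in Gli2A Tg and -0.40 in WT cells; it shifted the median of all genes by 0.11 and 0.13 in these comparisons. The deposited scaling alone gave -0.24 and -0.60, sterol medians of -0.48 in Gli2A Tg, -0.60 in Gli2R Tg and -0.60 in WT cells, and 14 sterol enzymes called in Gli2A Tg cells. With the sex pattern as a covariate the sterol median was 0.33 for stimulated Gli2A Tg against Gli2R Tg and -0.18 for the stimulation effect of Gli2R Tg minus WT, and with the mean of all probe sets it was 0.092 for the effect of Gli2A Tg minus Gli2R Tg. The cause of these shifts was not tested. Member genes called in resting Gli2A Tg against WT cells were 0 with median centring, the compared arrays only, the mean of probe sets or the sex covariate, and 1 with the deposited scaling, log2 of value plus 1, the replicate block or all probe sets fitted singly. In resting Gli2A Tg against Gli2R Tg cells they were 6 over genes above the median level or with a trended robust variance, 1 with the compared arrays only and 0 with the mean of probe sets. In stimulated Gli2A Tg against WT cells they were 2, 2, 0 and 0 in that order of settings. In stimulated Gli2A Tg against Gli2R Tg cells they were 2 with the deposited scaling, log2 of value plus 64, genes above the median level, the trended robust variance or array weights, and 0 with log2 of value plus 1, the replicate block, the compared arrays only, the mean of probe sets, all probe sets singly or the sex covariate. The replicate block moved no other count of calls by over 1.5 times; the Pmvk call in WT cells was lost with it (adjusted p = 0.0504). Leaving out 1 array at a time gave 0 to 1 calls in resting Gli2A Tg against WT, 0 to 1 in stimulated Gli2A Tg against WT and 0 to 1 in stimulated Gli2A Tg against Gli2R Tg cells, and sterol medians of 0.051 to 0.44 in resting Gli2A Tg against Gli2R Tg, -0.11 to 0.20 in stimulated Gli2R Tg against WT and -0.20 to 0.11 for the effect of Gli2A Tg minus Gli2R Tg. Medians were not recomputed over genes above the median level, which is another set of genes. Dim genes such as Me1, Scd1 and Fads2 varied most between arrays, with standard errors of 0.37 to 0.44 on the log2 scale.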
